A study of Mus musculus with 9 samples.

Results

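The genes described here encode 9 enzymes that make the building blocks of DNA and RNA: Rrm1, Rrm2, Tyms, Tk1 and Dut, which act on deoxynucleotides, and Paics, Gart, Atic and Impdh2, which act in purine synthesis. They were chosen by name, with earlier results of these data known, and every probe listed with 1 of these symbols was taken, which gave 24 probes for 8 of the 9 genes. No probe carried the symbol Impdh2, which was therefore not analysed here. Of the 24 probes, 17 were detected on enough arrays to be kept, all 8 genes with a probe were tested, and they stand among 11009 genes tested of 19057 genes with a probe. Total RNA came from cultured neural stem and progenitor cells (NSCs/NPCs) of the hippocampal dentate gyrus of adult C57BL6 mice and was hybridised to 9 Illumina mouse BeadChip arrays, 3 for each stage. Proliferation arrays held floating neurospheres grown with EGF, bFGF and heparin. Early differentiation arrays (day 2) and late differentiation arrays (day 7) held cells from dissociated neurospheres that were plated on poly-D-lysine and laminin, kept in proliferation medium first and then moved to differentiation medium, whose listed components hold none of these factors. Stage, medium and attachment to a dish therefore changed together and cannot be told apart. The labels call the 3 arrays of a stage biological replicates without saying which animals or cultures they came from.

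A dividing cell has to copy its genome and draws its deoxynucleotides from a short route. Ribonucleotide reductase, built from a large subunit (Rrm1) and a small subunit (Rrm2), reduces ribonucleotides to deoxynucleotides. Thymidylate comes either from dUMP, which dUTPase (Dut) supplies and thymidylate synthase (Tyms) methylates with a folate donor, or from salvaged thymidine, which cytosolic thymidine kinase (Tk1) phosphorylates. Purine rings are assembled by the de novo pathway, in which Gart, Paics and Atic catalyse some of the steps that lead to IMP. Several of the genes for deoxynucleotide enzymes are known as targets of E2F factors that are transcribed around S phase.

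The arrays detected between 18310 and 19919 probes each. Mean signal before normalisation was 223 ± 4.91 in proliferation, 163 ± 7.10 in early differentiation and 175 ± 3.77 in late differentiation (SD, n = 3 each), so the proliferation arrays were the brightest. One BeadChip carried the arrays of proliferation and late differentiation and the other those of early differentiation, which means that a comparison with early differentiation cannot be told apart from one between BeadChips. The third principal component, with 4.60% of the variance, set replicate 3 of every stage apart from the other arrays, and calls without these 3 arrays are given below where they differ. All 4 tested markers of proliferating cells were lower in both differentiation stages, and the summed level of these markers (linear normalised intensity) was 1095 to 1460 in proliferation, 116.9 to 137.6 in early differentiation and 101.6 to 113.0 in late differentiation. Astrocyte markers summed to 10200 to 15720, 26950 to 29920 and 25440 to 27400 in the same 3 stages, and 5 of 7 were called higher in each differentiation stage. All 7 neural stem cell markers were tested, of which 2 were lower and 3 higher at day 7. Of 4 tested oligodendrocyte lineage markers 2 were lower and 1 higher in both stages, and their sum was 8705 to 11090, 4828 to 5765 and 2234 to 3642. Of 5 tested neuronal markers 1 was lower in both stages and 1 higher at day 2, with sums of 2041 to 2612, 2297 to 2613 and 1979 to 2277, while Neurod1 and Mog were not detected on any array. Of the markers of other cell types, 1 of 7 microglial, 1 of 5 endothelial and 0 of 5 fibroblast markers were detected often enough to be tested. The part of cell composition in the results below was not tested.

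The first comparison asked how the enzymes differed between cells after 7 days of differentiation and proliferating cells. Of the 8 tested genes, 7 fell at day 7, none rose, and Paics did not pass the test. The Tk1 probe was kept only through its detection in proliferation, and 6 of 7 genes were called when detection on at least 6 arrays was required. The falls were largest for the deoxynucleotide enzymes and smaller for the purine enzymes Atic and Gart. A gene was called at a Benjamini-Hochberg adjusted p under 0.05 in limma's moderated test over all genes with a change of at least 1.5-fold. By this rule 16.2% of all genes tested were called lower and 17.6% higher in late differentiation against proliferation. The enzyme genes were chosen with earlier results of these data known, so these shares are a background and not a test. The median log2 change was -1.46 over the 8 enzyme genes and 0.01 over all genes. In the same 7 genes all 3 late arrays lay below all 3 proliferation arrays, an arrangement found in 29.9% of all genes tested. In bulk RNA, fewer cells that express a gene and less of its RNA per cell cannot be told apart.

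The picture at day 2 was close to that at day 7. The same 7 genes were called lower in early differentiation against proliferation and none higher, against 15.2% of all genes called lower and 16.8% called higher. The median log2 change was -1.33 over the enzyme genes and 0.00 over all genes, and 7 genes had all 3 early arrays below all 3 proliferation arrays, as had 30% of all genes. The comparisons of day 7 and of day 2 share the proliferation arrays, so their likeness is no independent evidence.

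**Figure D1:**
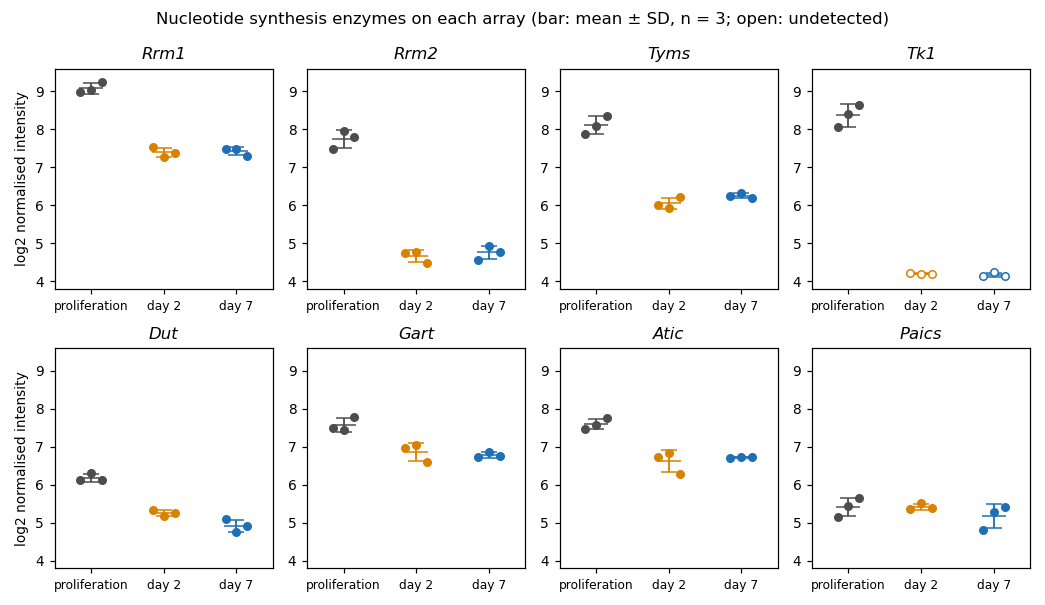
Log2 normalised intensity of the probe that stands for each enzyme gene (vertical axis) on the 3 arrays of proliferation, day 2 and day 7, with the mean and SD of each stage (n = 3) and open points where no array of a stage detected the probe. In all panels except that of Paics, the points of both differentiation stages lie below those of proliferation, and in the panel of Tk1 both sit at background.

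Rrm1, the large subunit that binds the substrate, had log2 intensities of 8.98, 9.03 and 9.25 in proliferation, 7.53, 7.28 and 7.39 in early differentiation and 7.48, 7.49 and 7.31 in late differentiation. The groups of the differentiated cells overlapped each other and lay well below the proliferating cells. The change was -1.66 ± 0.11 at day 7 (log2, SE, 3 arrays per group, adjusted p = 6.97e-07) and -1.69 ± 0.11 at day 2 (adjusted p = 6.97e-07), a 3.16-fold and a 3.22-fold fall. Rrm2, the small subunit that carries the tyrosyl radical and is the one known to be lost outside S phase, had 7.48, 7.95 and 7.79 in proliferation, 4.76, 4.77 and 4.50 in early differentiation and 4.58, 4.93 and 4.78 in late differentiation. It fell to just above background in both stages, where its intensities of 82.6 to 91.7 stood beside median signals of undetected probes between 77.0 and 80.2. Its change was -2.98 ± 0.15 at day 7 (adjusted p = 6.56e-08) and -3.07 ± 0.15 at day 2 (adjusted p = 6.23e-08), or 7.87-fold and 8.37-fold.

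By the brightest probe of each subunit, the fall of Rrm2 exceeded that of Rrm1 on the log2 scale. The difference Rrm2 minus Rrm1 within an array was -1.50, -1.08 and -1.46 in proliferation, -2.77, -2.51 and -2.89 in early differentiation and -2.90, -2.56 and -2.53 in late differentiation, and no differentiated array overlapped a proliferation array. Taken over both differentiation stages against proliferation, the difference shifted by -1.35 (exact permutation test, two-sided, p = 0.0119, the smallest that 6 against 3 arrays allow). That test takes the 9 arrays as exchangeable, although same-numbered arrays deviated together in the comparisons with early differentiation. When labels were permuted only within replicate numbers, a test added after the data were seen, the exact p was 0.037, the smallest that its 27 arrangements allow. The shifts of -1.32 at day 7 and -1.38 at day 2 each had p = 0.10, the smallest an exact test of 3 against 3 can give. The size of this shift depended on how background was handled, from -0.54 with a background offset of 50 to -2.45 with plain background subtraction, while its sign and its p did not change. With all kept probes of each subunit averaged, also added after the data were seen, the shift was -0.37 (exact permutation test, p = 0.0119), and the third and dimmest Rrm2 probe had a change of -0.45 at day 7, smaller than that of either kept probe of Rrm1. Levels of different probes cannot be set against each other, so only the shift between stages has a meaning.

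**Figure D2:**
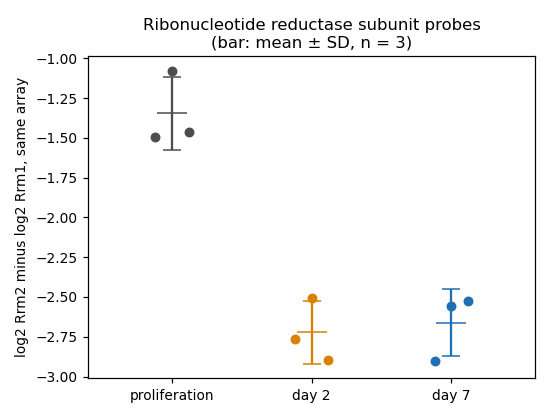
Difference of the log2 normalised intensities of Rrm2 and Rrm1 on the same array (vertical axis) for the 3 arrays of proliferation, day 2 and day 7, with mean and SD (n = 3). The 6 differentiation arrays lie between -2.90 and -2.51 and the 3 proliferation arrays between -1.50 and -1.08.

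The thymidylate genes fell as well, by very different amounts when each was read from its brightest probe. The second, dimmer kept probes of Tyms and Tk1 gave similar changes at day 7, -1.25 ± 0.13 and a fitted -1.35 ± 0.10, the latter with no late array detected. Tyms had log2 intensities of 7.88, 8.09 and 8.36 in proliferation, 6.02, 5.94 and 6.22 in early differentiation and 6.24, 6.33 and 6.19 in late differentiation. Its change was -1.85 ± 0.13 at day 7 (adjusted p = 9.87e-07) and -2.05 ± 0.13 at day 2 (adjusted p = 5.36e-07), and the probe stayed detected on all 9 arrays. Tk1 had 8.06, 8.40 and 8.64 in proliferation, 4.23, 4.19 and 4.20 in early differentiation and 4.14, 4.24 and 4.15 in late differentiation. Its probe was not detected on any of the 6 differentiation arrays, where its intensity before correction was 76.6 to 80.9, against 411.5 to 596.4 in proliferation. By this probe, the level of Tk1 was therefore at least 15.1-fold lower at day 7 and at least 15.3-fold lower at day 2, taking the lowest detected signal of each array as the bound. The fitted changes, which rest on undetected signals, were -4.19 ± 0.13 (adjusted p = 5.90e-09) and -4.16 ± 0.13 (adjusted p = 6.93e-09). The probe was kept only through its detection in proliferation, so these p-values are no separate support for the fall.

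Dut, which removes dUTP and so keeps uracil out of DNA, had log2 intensities of 6.12, 6.31 and 6.12 in proliferation, 5.34, 5.18 and 5.25 in early differentiation and 5.09, 4.77 and 4.91 in late differentiation. By the probe that stands for each gene, it was the only tested enzyme gene whose late arrays all lay below the early arrays. The second, dimmer kept Dut probe did not show this, with 0.15 ± 0.12 in late against early differentiation. By the first probe, the change of Dut was -1.26 ± 0.11 at day 7 (adjusted p = 5.02e-06) and -0.93 ± 0.11 at day 2 (adjusted p = 5.11e-05). With an offset of 50 the day 2 change of Dut was -0.56, under the minimum fold.

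The 250 bases before the annotated starts of Tyms, Rrm1 and Rrm2 are shown as examples of the promoters of these enzymes, chosen among the larger falls and, unlike that of Tk1, free of another annotated gene. They come from RefSeq on GRCm38.p6, with CCAAT boxes (CCAAT), GC boxes (GGGCGG) and E-boxes (CACGTG) on either strand in capitals.
Tyms, chr5:30073626-30073875, minus strand: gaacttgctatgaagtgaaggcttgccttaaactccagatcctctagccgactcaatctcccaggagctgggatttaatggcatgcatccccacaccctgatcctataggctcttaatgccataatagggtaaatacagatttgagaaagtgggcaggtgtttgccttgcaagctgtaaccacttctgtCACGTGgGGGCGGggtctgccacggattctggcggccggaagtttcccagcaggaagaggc
Rrm1, chr7:102441445-102441694, plus strand: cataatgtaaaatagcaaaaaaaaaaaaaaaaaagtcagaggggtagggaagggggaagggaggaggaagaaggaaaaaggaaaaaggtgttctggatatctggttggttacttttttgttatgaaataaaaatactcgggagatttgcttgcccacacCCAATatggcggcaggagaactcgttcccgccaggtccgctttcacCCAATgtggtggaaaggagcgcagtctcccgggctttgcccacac
Rrm2, chr12:24708004-24708253, plus strand: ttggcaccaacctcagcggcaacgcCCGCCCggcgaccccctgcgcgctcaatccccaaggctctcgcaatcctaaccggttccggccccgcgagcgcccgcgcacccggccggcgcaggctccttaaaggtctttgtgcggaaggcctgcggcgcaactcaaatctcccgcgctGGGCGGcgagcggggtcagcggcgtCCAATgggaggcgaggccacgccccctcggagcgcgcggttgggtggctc

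The 3 sequences held different motifs. Tyms had an E-box that began 61 bases before the start and a GC box at 54, Rrm1 had CCAAT boxes at 91 and 45 and no GC box, and Rrm2 had a CCAAT box at 50 with GC boxes at 225 and 75. All 9 enzyme genes, Impdh2 included, had an entry in the promoter table. Over these 9 windows, 8 held a GC box, 5 a CCAAT box and 4 an E-box (Tyms, Impdh2, Paics and Atic), and of 32851 promoters 32.7%, 33.8% and 6.02% did. The windows of Rrm2, Dut, Impdh2, Paics, Gart and Atic had a higher GC content than the median promoter (52.4%). Those of Tyms, Rrm1 and Tk1 had a lower one. The promoters were not matched for GC content, so an enrichment of these motifs was not tested. The E2F letters TTTCCCGC and TTTGGCGC were found in none of the 9 windows on either strand and in 0.895% and 0.417% of all promoters, which says only that these exact letters are not in these windows.

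At day 7 the purine enzymes changed less than the deoxynucleotide enzymes, whereas at day 2 the change of Atic was close to that of Dut. Gart, a multifunctional enzyme of the early de novo steps, had log2 intensities of 7.48, 7.45 and 7.79 in proliferation, 6.97, 7.05 and 6.60 in early differentiation and 6.72, 6.87 and 6.77 in late differentiation. Its change was -0.79 ± 0.14 at day 7 (adjusted p = 0.000677) and -0.70 ± 0.14 at day 2 (adjusted p = 0.00152). By this brightest Gart probe, the day 2 call rested on replicate 3, the lowest early array. Without early replicate 3 the change of this probe at day 2 was -0.56, and without replicate 3 of all stages it was -0.46, both short of 1.5-fold. The second kept Gart probe gave -0.72 ± 0.12 at day 2 (1.64-fold), and replicate 3 was not its lowest early array. Atic, which catalyses the closing steps to IMP, had 7.48, 7.58 and 7.75 in proliferation, 6.74, 6.85 and 6.29 in early differentiation and 6.72, 6.74 and 6.73 in late differentiation. Its change was -0.87 ± 0.14 at day 7 (adjusted p = 0.000384) and -0.97 ± 0.14 at day 2 (adjusted p = 0.000201).

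Paics, which acts between Gart and Atic in the pathway and was read from 1 probe only, was the only tested enzyme gene not called. Its log2 intensities were 5.16, 5.44 and 5.65 in proliferation, 5.36, 5.52 and 5.40 in early differentiation and 4.82, 5.29 and 5.42 in late differentiation, and the 3 stages overlapped. Its change was -0.24 ± 0.17 at day 7 (adjusted p = 0.257, 95% interval -0.61 to 0.13) and 0.01 ± 0.17 at day 2 (adjusted p = 0.960, 95% interval -0.36 to 0.38). The intervals leave room for a fall of up to 0.61 on the log2 scale, so they do not show that Paics was unchanged. Before normalisation its intensities were 92.4, 98.4 and 104.3 in late differentiation, against 109.2, 115.3 and 130.8 in proliferation, without overlap, on arrays whose mean signals differed in the same direction. Without normalisation between arrays its day 7 change was -0.54 and was not called. The probe was dim, beside median signals of undetected probes between 77.0 and 85.2, and the background offset compresses changes of dim probes. Dim kept probes of Dut and Atic, genes called by their brightest probe, also had small changes at day 7 (-0.36 for Dut, -0.29 and -0.20 for Atic). The values of this 1 probe therefore do not show that Paics differs from the other enzyme genes.

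Ppat, which catalyses the committed step of purine synthesis, lies head to head with Paics. In RefSeq (GRCm38.p6) it is read from the opposite strand of chromosome 5, and its start lies 276 bases inside Paics, so that the 5′ ends of the pair overlap. Ppat was called lower, with a change of -1.24 ± 0.17 at day 7 (adjusted p = 9.64e-05) and -1.39 ± 0.17 at day 2 (adjusted p = 5.01e-05). Its neighbour was not called, but Paics was read from 1 dim probe and the difference between them was not tested. The 250 bases before the Ppat start held the E2F letters TTTCCCGC at 2 places, both on the opposite strand, shown here with 10 bases on either side and the match in capitals. Ppat was singled out after its values were seen.
Ppat, chr5:76951772-76951799, minus strand: agcagaccgcGCGGGAAAaaagggcagt
Ppat, chr5:76951719-76951746, minus strand: ggatcagaggGCGGGAAAgggaggtgca

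**Figure D3:**
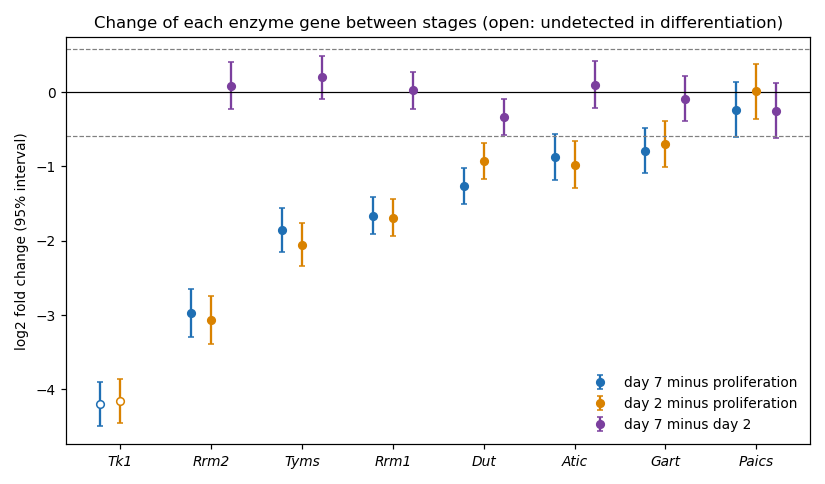
Log2 fold change of each enzyme gene with its 95% interval (vertical axis) for day 7 minus proliferation, day 2 minus proliferation and day 7 minus day 2, with dashed lines at 1.5-fold. The changes run from Tk1, drawn open because its probe was undetected in differentiation, up to Paics near 0, and the drawn intervals of day 7 minus day 2 include 0 except for Dut.

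Between the differentiation stages none of the 8 genes was called. All genes tested were called lower in 2.35% and higher in 1.57% of cases in late against early differentiation. The median log2 change was 0.00 over the 8 enzyme genes and 0.01 over all genes. At an unadjusted p under 0.05 there was 1 gene, Dut, with a change of -0.33 ± 0.11 (95% interval -0.58 to -0.09, limma adjusted p = 0.10). Dut was also the only enzyme gene with all 3 late arrays below all 3 early arrays, as had 14% of all genes. Both values come from the brighter Dut probe, and the second, dimmer kept probe went the other way at 0.15 ± 0.12. For the other genes with a detected probe, the bounds of the 95% intervals lay between -0.62 and 0.49 on the log2 scale. The first Tk1 probe was undetected in both stages and has no change to report. The second kept Tk1 probe was detected on 1 early array and on no late array, with a fitted change of -0.19 ± 0.10.

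The different probes of a gene did not always give the same change. Over all 17 kept probes, 11 were called lower at day 7 and 12 at day 2 and none higher, against 14.9% and 14.1% of all 20935 kept probes called lower. These probes come from 8 genes and are not separate evidence. The first Tk1 probe and the second Rrm2 probe were detected in proliferation only and were kept through that stage alone. The 2 kept probes of Rrm1 gave -1.66 ± 0.11 and -1.64 ± 0.12 at day 7. Those of Gart gave -0.79 ± 0.14 and -0.58 ± 0.12, and the smaller value lay just short of 1.5-fold. For Rrm2 the second probe was undetected on all 6 differentiation arrays and at least 6.03-fold lower at day 7, whereas the third gave -0.45 ± 0.17 with intensities of 92.6 to 108.3 in proliferation, close to background.

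Where the probes disagreed, the dimmer probe had the smaller change. The second Tyms probe gave -1.25 ± 0.13 against -1.85 ± 0.13 for the first, and the second Dut probe -0.36 ± 0.12 against -1.26 ± 0.11. The second Tk1 probe was undetected on all late arrays and at least 2.22-fold lower at day 7, with intensities of 120.9 to 132.0 in proliferation. The other 2 kept Atic probes gave -0.29 ± 0.13 and -0.20 ± 0.16 and were detected on 4 and 5 of 9 arrays. When all kept probes of a gene were averaged, Atic alone lost its call, with -0.46 at day 7 and -0.48 at day 2.

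**Figure D4:**
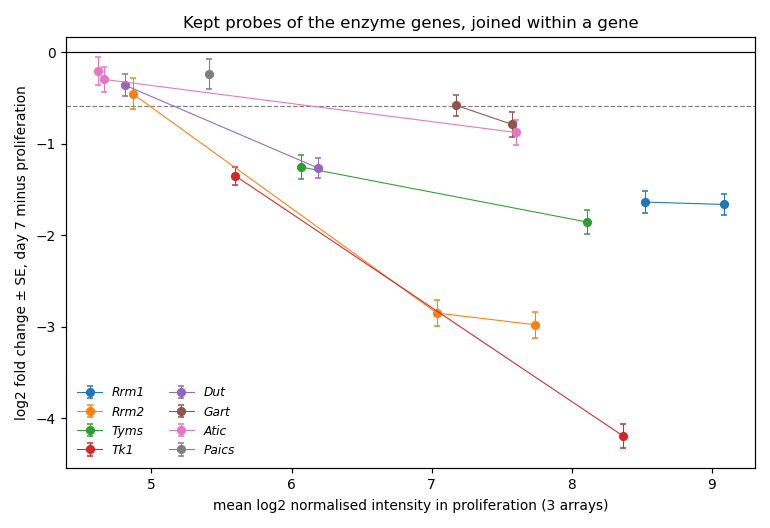
Log2 fold change with SE at day 7 against proliferation (vertical axis) of each of the 17 kept probes, set against the mean log2 normalised intensity of the probe over the 3 proliferation arrays (horizontal axis), with probes of a gene joined. Within Rrm2, Tk1, Tyms, Dut and Atic the brighter probe shows the larger fall, and the 2 probes of Rrm1 nearly coincide.

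The enzymes were then set beside the rest of their pathways, with 16.2% of all genes called lower and 17.6% higher at day 7 as the background of each count. Of 11 further genes of de novo purine synthesis, 6 were called lower and 1 higher at day 7, with a median log2 change of -0.59. Besides Ppat, the falls included the IMP dehydrogenase Impdh1 at -1.20 ± 0.18 (adjusted p = 0.000215) and the GMP synthase Gmps at -0.92 ± 0.20 (adjusted p = 0.00234). The gene that rose was Prps2, a synthetase of the ribose precursor PRPP, at 1.23 ± 0.22 (adjusted p = 0.000804). In de novo pyrimidine synthesis 4 of 6 genes were called lower and none higher (median -0.74), led by Umps, which makes UMP, at -1.17 ± 0.13, Cad, which holds the opening activities, at -0.86 ± 0.12, and the kinase Cmpk1 at -0.77 ± 0.10. Among 6 further deoxynucleotide genes 4 were called lower and none higher (median -0.72), with the dCTP pyrophosphatase Dctpp1 at -1.68 ± 0.11 (adjusted p = 4.02e-07). Rrm2b, the small subunit that p53 induces and that was singled out after its values were seen, had a change of -0.01 ± 0.12 (adjusted p = 0.976).

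Folate supply, salvage and breakdown were mixed. Of 11 genes of folate one-carbon supply 2 were called lower at day 7 and none higher (median 0.06), a share of falls near the 16.2% of all genes. They were mitochondrial Mthfd2 at -3.27 ± 0.12 (adjusted p = 1.35e-08), and cytosolic Shmt1, a source of the methyl group for thymidylate, at -2.29 ± 0.11 (adjusted p = 7.47e-08). At day 2, 3 were lower and Phgdh, which opens serine synthesis, was higher at 0.62 ± 0.15. Of 10 further salvage genes 4 were lower and 1 higher (median -0.16). The uridine-cytidine kinases moved apart, with Uck2 at -1.82 ± 0.13 and Uck1 at 0.68 ± 0.13, and the nucleoside transporter Slc29a1 had -1.79 ± 0.12. Mitochondrial thymidine kinase Tk2, singled out after its values were seen, had a change of 0.57 ± 0.13 (adjusted p = 0.00412), below the minimum fold. Of 11 breakdown genes 3 were lower and 2 higher (median -0.20), beside 16.2% and 17.6% of all genes. Among them were uridine phosphorylase Upp1 at -3.37 ± 0.13, Nt5dc2 at -1.27 ± 0.22, the ectonucleotidase Nt5e, at least 1.33-fold lower, Dpyd, which opens pyrimidine breakdown, at least 1.52-fold higher, and the AMP deaminase Ampd3 at 0.73 ± 0.23.

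**Figure D5:**
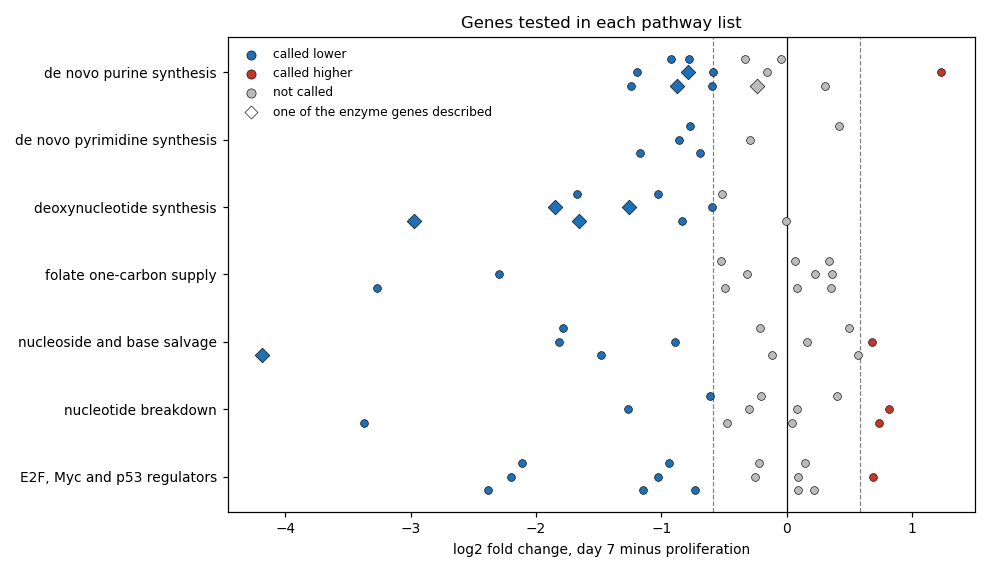
Log2 fold change at day 7 against proliferation (horizontal axis) of every tested gene of 7 lists (rows), coloured by its call, with diamonds for the enzyme genes described and dashed lines at 1.5-fold. Called falls make up most of the deoxynucleotide row (8 of 10 genes) and few of the folate row (2 of 11).

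Some of the genes known to govern these enzymes also differed between the stages. Of 14 tested E2F, Myc and p53 regulators, 7 were called lower and 1 higher at day 7 (median -0.49) and likewise 7 and 1 at day 2 (median -0.57), beside 16.2% lower and 17.6% higher of all genes at day 7 and 15.2% and 16.8% at day 2. Those called lower were E2f1, E2f2, E2f3, E2f4, Tfdp1, Rbl1 and Lin54 in both stages. Myc was not called at day 7 (-0.22 ± 0.14, adjusted p = 0.206). E2f7, E2f8, Lin9, Mycn and Max were not detected often enough to be tested. The gene of p53 itself, Trp53, had no probe listed with its symbol alone and was not tested. E2f1, an activator of S phase genes, had -2.38 ± 0.13 (adjusted p = 1.57e-07). By the probe that stands for it, E2f2 was undetected in both differentiation stages and at least 3.95-fold lower at day 7. This E2f2 probe was kept only through its detection in proliferation, and another E2f2 probe was detected on 4 arrays. The pocket protein Rbl1 had -2.20 ± 0.15 (adjusted p = 7.54e-07), whereas Rb1, the retinoblastoma protein that holds E2F in check, rose by 0.69 ± 0.10 at day 7 (adjusted p = 0.000196) and 0.99 ± 0.10 at day 2 (adjusted p = 1.75e-05). Cdkn1a, the p53 target that inhibits cyclin-dependent kinases, was the only one of the 14 called between the differentiation stages, with 0.59 ± 0.13 in late against early differentiation (adjusted p = 0.0268).

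Across the 9 arrays the enzyme genes followed nearly the same profile. The correlation of each gene with the mean standardised profile of the other 7 was 0.92 to 0.98 (Pearson) for 7 genes and 0.29 for Paics, and the median correlation between pairs was 0.93. These points share arrays and fall into proliferating and differentiated groups, so the values are descriptions only. The 5 other genes whose profile was most like the mean of the 8 were Cenpf (r = 0.9945), Cenpi (0.9938), Chaf1a (0.9924), Fancd2 (0.9919) and Mcm2 (0.9919). Their changes at day 7 were -1.41, -2.00, -1.30, -1.74 and -3.00 on the log2 scale, in that order.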

How the data were processed

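Each of 9 total RNA samples was hybridised to an Illumina mouse whole-genome array, and samples were grouped by the stage in their titles. The deposited non-normalised table held each probe's intensity and its detection p-value, exported by the authors from GenomeStudio. The authors described a background-subtracted export and an analysis in GeneSpring, whereas these intensities still included background. The deposited value table held background-subtracted intensity scaled per array and served as an alternative only.

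Background was removed with the normexp model of limma (version 3.58.1, in R 4.3.3), which read it from the detection p-values and added an offset of 16 that compresses changes of dim probes. Values were then quantile normalised and expressed as log2. To be kept, a probe needed a detection p under 0.05 on 3 or more arrays (20935 of 45281), and a gene was read from its kept probe with the highest mean. Symbols came from the platform annotation, which gave 34885 probes 1 symbol, 18 several and 10378 none, and 1 probe that lists Gart with other genes was left out. A probe undetected on every array of a stage gives only a bound. A model with 3 stage means covered the 9 arrays together (lmFit, eBayes), p-values were adjusted over all genes tested, and calls needed an adjusted p under 0.05 and 1.5-fold. Ratios of the subunits were compared by exact permutation tests. The scripts were tested on simulated data.

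Named genes were the 9 enzymes with every probe, up to 3 called genes per direction and list by size at day 7, called genes against their list's main direction, and the 5 most similar profiles. The members and lists were chosen with earlier results of these data known. Same-numbered arrays deviated together between early differentiation and proliferation (r = 0.24, 0.20 and 0.31) and between late and early differentiation (0.32, 0.17 and 0.39), above the minimum of 0.1. Between late differentiation and proliferation (0.06, 0.08 and 0.14) only replicate 3 passed this minimum. Alternatives covered normalisation, offset, background, the value table, filters, the averaging of probes, the arrays in the fit, the replicate block, left-out arrays and the thresholds. The number of arrays limits the precision.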

Additional observations from a re-analysis of the deposited data

How the results depend on the processing

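Across 23 alternatives, the count of enzyme genes called was 6 to 7 in late differentiation against proliferation, 5 to 7 in early differentiation against proliferation, and 0 in every case between late and early differentiation. With single arrays or replicate 3 of all stages left out, the ranges were 7 to 7, 6 to 7 and 0 to 0. No call changed direction. Calls were lost for Tk1 when detection on at least 6 arrays was required, since its probe was then not tested, for Atic when probes were averaged, for Dut and Gart at day 2 with an offset of 50, and for Gart at day 2 without early replicate 3 or without replicate 3 of all stages. In the paired fit with the replicate number as a block, 7, 7 and 0 genes were called, and this replicate block changed no call of an enzyme gene.

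At day 7 the largest move came from the treatment of background for Tk1, Rrm2 and Dut, and from leaving out normalisation between arrays for Rrm1, Tyms, Gart, Atic and Paics. Over the alternatives, the fitted change at day 7 spanned -8.16 to -2.77 for Tk1, -4.19 to -2.02 for Rrm2, -2.34 to -1.49 for Tyms, -2.18 to -1.49 for Rrm1, -2.01 to -0.73 for Dut, -1.38 to -0.46 for Atic, -1.29 to -0.64 for Gart and -0.54 to -0.06 for Paics. Without normalisation between arrays the median of all genes was -0.31 at day 7 and -0.41 at day 2, the median of the enzyme genes -1.89 and -1.95, and the share of calls that were higher dropped to 21.5%, against 52.1% with quantile normalisation, at day 7 and to 15.7%, against 52.6%, at day 2. All genes called lower then numbered 3754 and 4305, and those called higher 1026 and 804, against 1788, 1671, 1941 and 1854. Without a minimum fold 2914 genes were lower and 3025 higher at day 7 and 2832 and 2914 at day 2. Between late and early differentiation the counts of 259 lower and 173 higher genes ranged from 133 to 398 lower and from 93 to 370 higher. In differentiated cells the signals of Tk1 and Rrm2 lay at or near background, which limits the precision of their fitted changes.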
